A study of Rattus norvegicus with 4 samples.

Results

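The miRNAs described here are rno-miR-203, rno-miR-205, rno-miR-31 and rno-miR-135b, written below without the rat prefix, 4 of the 350 rat miRNAs on the array, chosen by name because they are known from skin and other stratified epithelia. The study took the gracilis, which lies on the inner thigh, from male Sprague-Dawley rats, and compared 4 h of ischemia followed by reperfusion with a sham operation, 2 arrays per group. The sample labels give 4 h of reperfusion and the series text gives 24 h, so that the time point is not settled. No transgene or drug is named in the labels of either group. Samples were labelled with Cy3 and run 1 per array, and each value is the total signal of a miRNA after background subtraction, in linear scanner units, with the scanner software's own error of that signal and a flag for detection. A signal can lie below 0.

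MicroRNAs are short RNAs that guide silencing complexes to messenger RNAs, mainly through their seed, bases 2 to 8, and lower the output of those messengers. In mammalian skin miR-203 is found in the differentiating layers, where in mouse it represses the stem cell factor p63, and miR-205 is abundant in basal keratinocytes. Skeletal muscle fibres are known instead for miR-1, the miR-133 miRNAs, miR-206 and miR-499.

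The mature sequences are shown because the seed sets what a miRNA can pair with, and because near-identical sequences can be hard for an array to separate. They are RefSeq's, build GRCr8, written 5′ to 3′ with the seed in capitals. The array names carry no arm and no sequence, so each name was paired with the arm that the older name denoted.
miR-203: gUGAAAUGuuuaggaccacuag
miR-205: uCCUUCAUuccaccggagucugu
miR-31: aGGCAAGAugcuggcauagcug
miR-135b: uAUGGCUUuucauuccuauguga
miR-135a: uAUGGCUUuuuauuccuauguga
The 4 miRNAs share no seed. Among 724 mature rat sequences in the table, the seeds of miR-203, miR-205 and miR-31 each occur in 1 sequence. That of miR-135b occurs in 2, the other being miR-135a, which differs from miR-135b by the single substitution C11U, counted from the 5′ end of miR-135b. Their GC content was 40.9% for miR-203, 52.2% for miR-205, 54.5% for miR-31 and 34.8% for miR-135b.

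The 4 genes lie apart in the genome. Mature miR-203 (RefSeq miR-203a-3p, gene Mir203) lies at chr6:137020756-137020777 on the plus strand, in a hairpin that overlaps Mir3545 and lies 3288 bp from the protein-coding gene Aspg. Mature miR-205 (gene Mir205) lies at chr13:107564588-107564610 on the minus strand, overlapping no other gene of the RefSeq table. Mature miR-31 (RefSeq miR-31a-5p, gene Mir31) lies at chr5:108714906-108714927 on the minus strand, within the span of the long non-coding gene LOC130062807, and its hairpin overlaps Mir3554. Mature miR-135b (RefSeq miR-135b-5p, gene Mir135b) lies at chr13:46191033-46191055 on the plus strand, within the spans of the genes Lemd1 and Blacat1. The table gives gene spans and no exons, so that exonic and intronic positions were not told apart.

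The arrays were not alike, and 1 of them goes against its tissue label. The flag called 158 and 187 miRNAs detected on sham replicates 1 and 2, and 174 and 121 on ischemia-reperfusion replicates 1 and 2. All 5 muscle miRNAs looked at (miR-1, miR-133a, miR-133b, miR-206 and miR-499) were detected on sham replicates 1 and 2 and on ischemia-reperfusion replicate 1, and their signals summed to 211933, 113072 and 90702 units on these arrays. On ischemia-reperfusion replicate 2 none of the 5 was detected and their signals ran from −1.49 to 8.10 units, summing to 10.1 units. Over miRNAs detected on both arrays of a pair, sham replicate 2 and ischemia-reperfusion replicate 1 gave log2 ratios with an SD of 0.27 (171 miRNAs), against 1.28 to 2.10 for every other pair. The part of these differences between arrays in the results below was not tested. In a whole-muscle extract fewer cells of a type and less RNA per cell cannot be told apart.

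All 4 miRNAs were detected on ischemia-reperfusion replicate 2, 1 of the 4 on replicate 1 and none on either sham array. The flag called 34.6% of all 350 miRNAs detected on replicate 2 and 49.7% on replicate 1, and 45.1% and 53.4% on sham replicates 1 and 2. Of the 350 miRNAs, 23 (6.57%) were detected on ischemia-reperfusion replicate 2 and on no other array, and 3 of the 4 described here were among them. A further 2 of 350 (0.571%) were detected on both ischemia-reperfusion arrays and on no sham array, of which 1, miR-205, is described here. The members were named with these values known, so the counts describe them and test nothing.

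miR-203, which drives keratinocytes out of the cell cycle in mouse skin, gave −4.34 units with a scanner error of 6.20 on sham replicate 1 and −0.661 units with an error of 2.33 on sham replicate 2. On ischemia-reperfusion replicate 1 it gave 0.681 units with an error of 2.46, and on replicate 2 it gave 98.5 units with an error of 7.54. Only the last array stood above its error, by 13.1 times, and the 2 ischemia-reperfusion arrays lay on different sides of detection.

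miR-205, which in mammalian cells represses the transcription factors Zeb1 and Zeb2 together with the miR-200 family, gave 0.787 units with an error of 6.20 on sham replicate 1 and 7.76 units with an error of 2.40 on sham replicate 2. On the ischemia-reperfusion arrays it gave 225 units with an error of 2.50 and 228 units with an error of 16.9. The groups did not overlap, which on the scaled levels used below held for 19 of the 159 miRNAs tested (11.9%), miR-205 among them. The signal of 225 units stands apart from other detected signals in its error and digits, as described below. Neither sham signal was called detected, although that of sham replicate 2 was 3.24 times its error. With detection set at a signal above 2 or 3 times its error in place of the flag, miR-205 counted as detected on sham replicate 2 as well, and no other call of the 4 miRNAs on any array changed.

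miR-31, known from keratinocytes in wounds and, in mouse, from muscle stem cells, where it holds back the messenger of Myf5, gave −15.6 units with an error of 6.20 and −0.576 units with an error of 2.33 on the sham arrays. It gave −1.02 units with an error of 2.46 on ischemia-reperfusion replicate 1 and 39.5 units with an error of 3.88 on replicate 2. Again only replicate 2 was above its error, by 10.2 times.

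miR-135b, a miRNA often raised in human epithelial tumours, gave 4.57 units with an error of 6.22 and 1.13 units with an error of 2.33 on the sham arrays, 1.13 units with an error of 2.47 on ischemia-reperfusion replicate 1 and 16.8 units with an error of 2.80 on replicate 2. Its detected signal was the faintest of the 4, at 6 times its error. On sham replicate 1 the highest undetected signal of any miRNA was 23.1 units, so that a signal of 16.8 units need not have been called there. On the other 3 arrays that highest undetected signal was between 9.11 and 9.37 units. miR-135a, which shares all but 1 base with miR-135b in the sequences above, was detected on no array, with 3.6 and 2.03 units on the sham arrays and 0.174 and 1.92 units on those of ischemia-reperfusion. The array held no row for the other strand of any of the 4 hairpins.

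**Figure D1:**
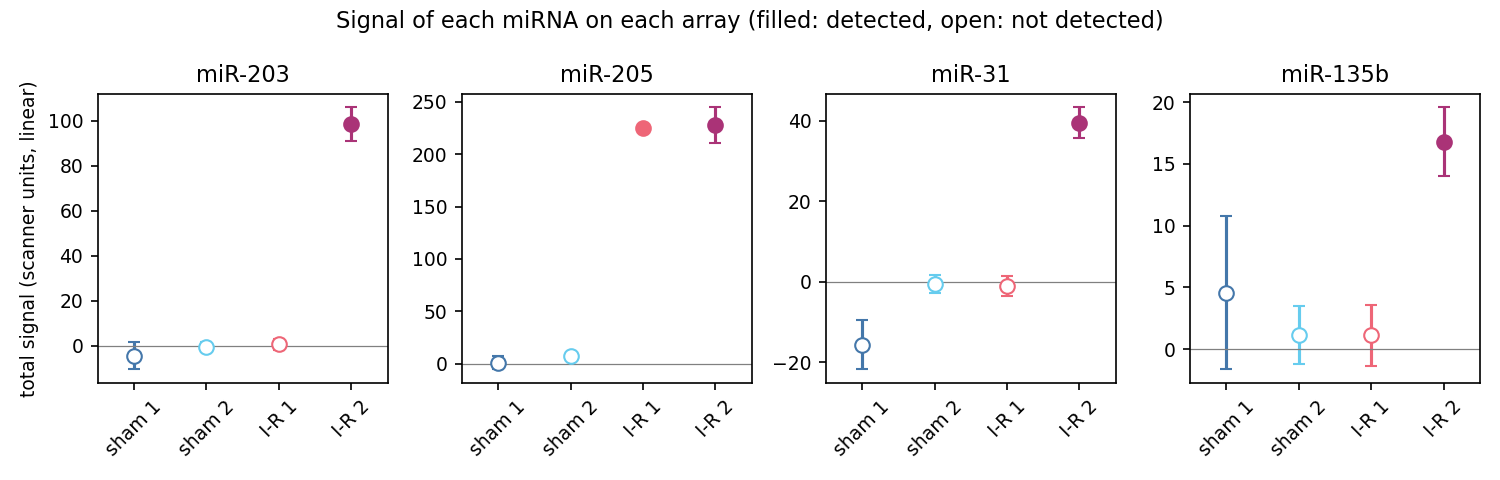
Total signal in linear scanner units (vertical axis, a scale of its own in each panel) of miR-203, miR-205, miR-31 and miR-135b on the 2 sham and 2 ischemia-reperfusion (I-R) arrays, with bars for the scanner error. Filled points are detected: all 4 on I-R replicate 2, and miR-205 also on I-R replicate 1, where its error of 2.50 units is smaller than the point.

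The miR-205 signal on ischemia-reperfusion replicate 1 differed from the other detected signals in its error and in the way it is written. Its error of 2.50 units was 1.11% of the signal. Among the 638 detected signals of all 4 arrays other than this one and that of miR-200c on the same array, the lowest relative error was 5.39%. On ischemia-reperfusion replicate 1 itself, the 28 other detected miRNAs between 100 and 400 units had errors of 7.12% to 8.85% of their signal. The 5 detected miRNAs nearest to miR-205 in signal there (207 to 227 units) had errors of 15.4 to 18.2 units, close to the 16.9 units of miR-205 itself on replicate 2. The errors of miR-203, miR-31 and miR-135b on replicate 1, where none of them was detected, were 2.46, 2.46 and 2.47 units. Of the miRNAs on that array with an error at or below that of miR-205, 187 in number with the pair of signals left out, the highest signal was 33.3 units.

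The number of digits set the same pair of signals apart. Of 1400 miRNA signals deposited for the 4 arrays, 1398 are written with at most 6 significant digits, leading zeros not counted. The other 2 have 8 digits, miR-205 (224.81378 units) and miR-200c (122.22711 units), both on ischemia-reperfusion replicate 1. The miR-200c signal had an error of 2.47 units, 2.02% of it. The value table of the series holds the same numbers. What sets these 2 signals apart was not tested. Without the miR-205 signal, none of the 4 miRNAs was detected on ischemia-reperfusion replicate 1, and their detection rests on replicate 2 alone.

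**Figure D2:**
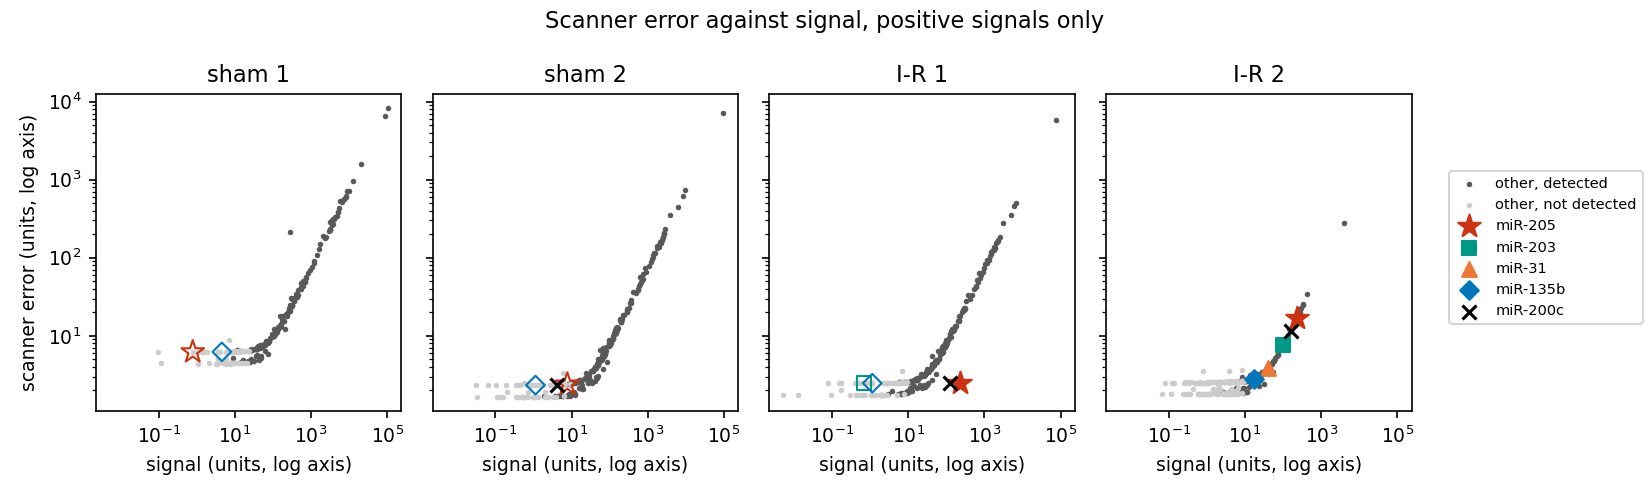
Scanner error against signal, both in scanner units on log axes, for every miRNA with a signal above 0 on each array (dark grey detected, light grey not detected; coloured symbols for the 4 miRNAs, filled where detected; crosses for miR-200c). On I-R replicate 1 miR-205 (225 units, error 2.50) and miR-200c (122 units, error 2.47) lie below the rising line of the other detected miRNAs, while on I-R replicate 2 all 4 miRNAs lie along that line.

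To compare arrays, each signal was divided by the 75th percentile that its own array gave for the 78 miRNAs that every array detected. That value was 3380 and 1171 units on the sham arrays and 995 and 92.0 units on the ischemia-reperfusion arrays, so an equal signal on ischemia-reperfusion replicate 2 becomes a much higher scaled level. Where a miRNA was not detected, its signal was taken as the higher of its own value and the lowest detected signal of that array. These lowest detected signals were 8.06, 1.84, 1.92 and 2.06 units in the same order. The highest undetected signals were above them, at 23.1, 9.11, 9.37 and 9.15 units. A fold over such a value is therefore an approximate limit, and the true fold could be lower.

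The study's question for these miRNAs is whether ischemia-reperfusion changed their levels in muscle. On this scale the mean of both ischemia-reperfusion arrays was 188-fold above the sham mean for miR-205, as an approximate limit. The log2 difference with a common floor for low signals was 7.86 ± 1.56 (moderated SE, n = 2 per group). That SE comes from the limma fit described below, which draws on the variance of all 159 miRNAs fitted. The log2 levels of miR-205 were −0.42 ± 2.44 (SD, n = 2) after ischemia-reperfusion and −8.28 ± 1.47 (SD, n = 2) in sham muscle. Neither sham signal was detected and that of sham replicate 1 is at the floor, so the sham level, its SD and the difference depend on the floor, and miR-205 could enter the comparison only through the arrays on which it was high. With the 8-digit signal left out, the limit was 624-fold and rests on ischemia-reperfusion replicate 2 alone. None of the 5 muscle miRNAs was detected on that array. The 188-fold limit includes both that array and the 8-digit signal. Without ischemia-reperfusion replicate 2 the limit was 56.8-fold and rests on the 8-digit signal. Without sham replicate 1 it was 113-fold and without sham replicate 2 it was 314-fold. With unscaled signals it was 28.6-fold.

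limma, fitted over the 159 miRNAs that both arrays of a group detected, in one group or in both, called 0 of 159 (0%) at an adjusted p under 0.05, and 2, miR-205 and miR-200c, at an unadjusted p under 0.05. miR-205 was the only one of the 4 that could enter this fit, and its limma adjusted p was 0.357, which is given as a description because the miRNA was chosen with this contrast known. Over the alternatives its limma adjusted p was lowest when ischemia-reperfusion replicate 1 was left out (0.0482) and highest when replicate 2 was (0.99). The lower ischemia-reperfusion level exceeded the higher sham level for miR-205 and in all for 19 of the 159 tested (11.9%). The median log2 difference over the 159 was 0.45.

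miR-203, miR-31 and miR-135b were detected on too few arrays for that fit. On ischemia-reperfusion replicate 2 alone, miR-203 was 553-fold above the sham mean, miR-31 222-fold and miR-135b 94.4-fold, as approximate limits with no replicate check. None of the 5 muscle miRNAs was detected on that array. Without scaling, the approximate limit on the log2 difference of that array from sham replicates 1 and 2 was 3.61 and 5.74 for miR-203. It was 2.29 and 4.42 for miR-31, and 1.06 and 3.19 for miR-135b. The miR-135b signal of 16.8 units lies below the highest undetected signal of sham replicate 1, 23.1 units. For miR-205 those values were 4.82 and 4.88. Averaged over both ischemia-reperfusion arrays, with the undetected one at its limit, the log2 difference from sham was 4.56 for miR-203, 3.90 for miR-31 and 3.28 for miR-135b. On the scale with the common floor the SD of the 2 ischemia-reperfusion arrays was 6.66, 5.72 and 4.85. Every array but ischemia-reperfusion replicate 2 was at that floor for these miRNAs. Difference and SD there both follow from replicate 2 alone, so setting one against the other tells nothing about spread. Without ischemia-reperfusion replicate 2 the difference of each of the 3 on the common-floor scale was 0, since every array left was at the floor.

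For miR-205 the 2 arrays most alike in their other miRNAs were also compared with each other, using the same signals as above. Between ischemia-reperfusion replicate 1 and sham replicate 2 the log2 ratios of the 171 miRNAs detected on both ran from −0.93 to 0.91, with a median of −0.11. The log2 ratio of miR-205 between them was 5.09 and rests on the 8-digit signal. Its undetected signal on sham replicate 2, 7.76 units with an error of 2.40, was taken as it is. miR-205 is not among the 171 miRNAs detected on both arrays, so its place outside their range tests nothing. Besides miR-205 and miR-200c, 1 miRNA was detected on ischemia-reperfusion replicate 1 and not on sham replicate 2, at 3.74 units. In the other direction 16 were detected on sham replicate 2 alone of the pair, at up to 16.5 units. Between the 2 ischemia-reperfusion arrays the unscaled signals of miR-205 were close, at 225 and 228 units, the first being the 8-digit signal, and its scaled log2 difference of 3.46 comes almost wholly from the scaling by 995 and 92.0 units. For the other 3 miRNAs the scaled signal on replicate 2 was above that on replicate 1, with the same scaling included. The approximate limits of that log2 difference were 9.11 for miR-203, 7.79 for miR-31 and 6.56 for miR-135b.

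**Figure D3:**
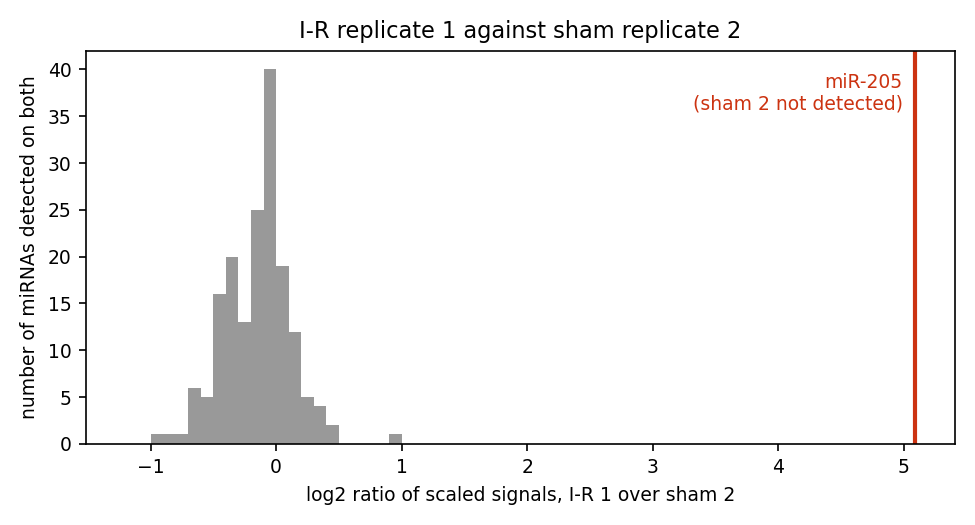
Number of miRNAs (vertical axis) by log2 ratio of the scaled signal on I-R replicate 1 to that on sham replicate 2 (horizontal axis), for the 171 miRNAs detected on both. The grey bars lie between −0.93 and 0.91, and the red line marks miR-205 at 5.09, with its undetected sham 2 signal of 7.76 units taken as it is.

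Other epithelial miRNAs were read beside the 4. Of 12 listed, 4 were detected on ischemia-reperfusion replicate 2, near the 34.6% of all miRNAs detected there, and 1 on replicate 1, 1 on sham replicate 1 and 0 on sham replicate 2. The 4 on ischemia-reperfusion replicate 2 were all of the miR-200 family, which keeps epithelial cells from a mesenchymal state: miR-200c at 159 units, miR-141 at 41.0 units, miR-200b at 40.8 units and miR-200a at 13.9 units. The fifth of that family, miR-429, gave −0.718 units there and was not detected. The one on ischemia-reperfusion replicate 1 was miR-200c, with the 8-digit signal. The miRNAs of the miR-183 cluster (miR-96, miR-182 and miR-183), known from sensory epithelia, and miR-194, miR-215 and miR-375, known from gut, kidney and endocrine tissue, were detected on no array, and miR-192 was detected on sham replicate 1 alone, at 27.2 units. Only miR-200c of the 12 entered the limma fit, through the ischemia-reperfusion arrays alone and with the 8-digit signal on one of them, and it was not called (limma adjusted p = 0.357).

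The summed signal of the 12 was −17.2 and 19.1 units on the sham arrays and 128 and 271 units on the ischemia-reperfusion arrays. That of the 4 miRNAs was −14.6 and 7.66 units for sham and 226 and 383 units for ischemia-reperfusion. Without its pair of 8-digit signals, ischemia-reperfusion replicate 1 held no detected miRNA of either list. Markers of other cells on ischemia-reperfusion replicate 2, where the muscle miRNAs were below detection, were seen for 3 of 3 fibroblast miRNAs, 2 of 4 leukocyte, 1 of 2 red-cell, 1 of 2 smooth muscle, 1 of 1 endothelial, 1 of 3 nerve and glia and 0 of 1 melanocyte miRNAs. Each other array detected 3 of 3 fibroblast, 3 or 4 of 4 leukocyte, 2 of 2 red-cell and 2 of 2 smooth muscle miRNAs. Each also detected 1 of 1 endothelial and 1 of 3 nerve and glia miRNAs, and sham replicate 1 the melanocyte one. With 34.6% of all miRNAs detected on ischemia-reperfusion replicate 2, counts over so few miRNAs are a description only. Their part in the signals of the 4 miRNAs was not tested.

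**Figure D4:**
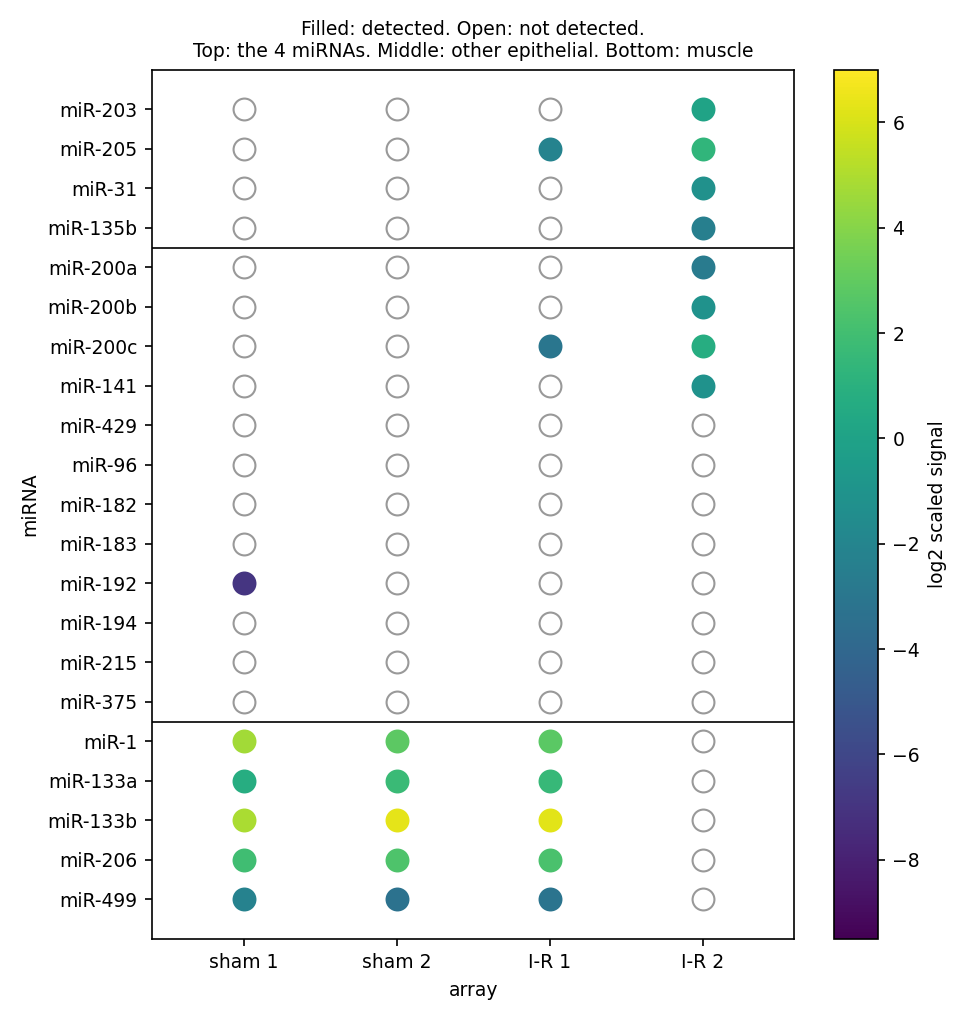
Detection of the 4 miRNAs (top), 12 other epithelial miRNAs (middle) and 5 muscle miRNAs (bottom) on each array, filled where detected and coloured by log2 scaled signal, open where not detected. On I-R replicate 2 all 4 miRNAs and 4 of the 12 are filled and 0 of the 5 muscle miRNAs, and the other 3 arrays hold all 5 muscle miRNAs.

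The miRNAs whose pattern over the 4 arrays was nearest were found by the distance between log2 scaled levels, each centred on its own mean over the arrays. Among 222 candidates, the nearest to miR-205 was miR-200c, at a distance of 0.73 against a median of 7.68, followed at 3.82 by miR-21 and at 4.03 by miR-134. The distance between miR-205 and miR-200c rests on their 8-digit signals on ischemia-reperfusion replicate 1, and the distances of miR-205 from the other 3 miRNAs include that signal too. Nearest to miR-203 were miR-598-5p (0.79), miR-200b (1.10) and miR-222 (1.75), against a median of 7.37. For miR-31 they were miR-200b (0.04), miR-598-5p (0.36) and miR-141 (1.04), against 6.27, and for miR-135b they were miR-200a (0.24), miR-374 (0.71) and miR-421 (0.80), against 5.25. Among the 4 themselves miR-203, miR-31 and miR-135b lay 1.07 to 2.21 from each other, and miR-205 lay 5.24 to 5.46 from each of them. For miRNAs detected on 1 array only, these distances mostly compare the scaled signals there, since their other levels are at the floor or bounded by detection.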

How the data were processed

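Per the submitters' processing notes, the deposited intensities come from Agilent Feature Extraction 9.5.3. Per the file headers, each file gives a miRNA's total signal, its error, also an intensity, and a detection flag. The values are linear, background-subtracted and not scaled between arrays. The series-wide value table repeats these intensities (0 of 1400 differed, tolerance 0), is linear, is not centred and has no direction, with column medians of 10.5, 8.79, 6.62 and 2.85 units. The sources used here name no array design, slide or scan date, so no batch was tested.

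The titles gave the groups. The labels do not say whether the 2 arrays of a group came from separate animals, while the series text calls them biological replicates. The limma p-values set differences against a variance drawn from these arrays and moderated over all miRNAs fitted. From the intensities, 22 control features were left out, arrays were divided by the 75th percentile named above, values were floored at 0.00157 (log2 −9.32), the lowest scaled detected signal, and log2 was taken. limma 3.58.1 in R 4.3.3 gave two-sided p-values, adjusted by Benjamini-Hochberg and called at 0.05, and was tested on simulated data. The simulation gave all miRNAs the same SD, with no floor and no array apart from the rest. It therefore says nothing about limma under those features of these data. The number of arrays limits the precision. The text names the 4 miRNAs, array rows with their seeds or other strands, the 3 nearest patterns for each, and fixed lists, of which only members a result turns on are given values. The members and lists were chosen with earlier results of these data known. Alternatives were other scalings, floors, filters and models, detection by signal over error, leaving out each array and, chosen after seeing the data, leaving out the 2 signals of 8 digits.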

Additional observations from a re-analysis of the deposited data

Results flagged for a closer look

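On ischemia-reperfusion replicate 1, 2 signals, miR-205 and miR-200c, were written with more than 6 significant digits. Each of the other 3 arrays, sham arrays included, had 0 such signals. The 2 signals also had the lowest relative errors of all 640 detected signals, 1.11% and 2.02%. These features of the files are outside the comparison of levels. Groups of 2 arrays are too small for a test of single arrays standing apart.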

How the results depend on the processing

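Against 0 miRNAs called by limma with all 4 arrays, 2 were called with unscaled signals, both lower and neither of them described here, and 0 to 11 when 1 array was left out. The 11 came without ischemia-reperfusion replicate 1, 2 of them higher, and miR-205 was the only one of the 4 miRNAs among them. The other alternatives, including the replicate block (0 called), called 0. Same-numbered arrays shared deviations from their group means with a correlation of 0.0973 over 159 miRNAs, and nothing in the labels says that the numbers pair the samples. The limit for miR-205 moved to 28.6-fold with unscaled signals and lay between 56.8 and 624 when 1 array was left out. Its log2 difference stayed between 5.91 and 9.59 over 12 alternatives. For miR-203, miR-31 and miR-135b it ran from 0, without ischemia-reperfusion replicate 2, to 9.41, 8.09 and 6.86 without replicate 1. That range arises because every array but ischemia-reperfusion replicate 2 was at the common floor for these miRNAs. What sets that array apart was not tested. An array left out leaves 1 in its group, which is assumed to vary like the other group. Signal over background limits the faint miR-135b most.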

Other observations

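Among the 23 miRNAs detected on ischemia-reperfusion replicate 2 alone, 2 besides the epithelial ones gave over 50 units, chosen here after their values were seen. miR-222, known from endothelium and from dividing cells, gave 71.4 units, against 1.41 and 6.37 units in sham muscle and 3.10 units on ischemia-reperfusion replicate 1. miR-598-5p gave 53.7 units, against −8.88, 1.98 and 0.0942 units in the same order. miR-211, known from melanocytes, was detected on sham replicate 1 alone, at 62.9 units.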
